A study of Homo sapiens with 6 samples.

Results

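The STEAP metalloreductase genes, STEAP1, STEAP1B, STEAP2, STEAP3 and STEAP4, were followed in the transcriptomes of 22Rv1-ABHD5 cells grown without or with doxycycline (Dox). The members are the 5 genes with these symbols among the 27470 genes of the count table, and each symbol was found as 1 row. The family was chosen because STEAP4 was among the largest falls in this comparison, so the change of STEAP4 is given as a description with no test. STEAP1, STEAP1B, STEAP2 and STEAP3 belong to the set by name and not by their values, although they are read in the same comparison. 22Rv1 is a castration-resistant human prostate cancer line, and 22Rv1-ABHD5 is its derivative infected with a pInducer20 lentivirus in which Dox switches on ABHD5, and selected with G418. ABHD5 is the coactivator of the triglyceride lipase ATGL. The 3 libraries without Dox (labelled Control) and the 3 with Dox (labelled OE, overexpressing ABHD5) came from cells cultured for 48 h. All 6 libraries carry the vector, and no library of parent cells with Dox was analysed here, so Dox and ABHD5 cannot be told apart. Whether the replicates were separate cultures is not stated, so p-values measure the spread between these libraries.

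STEAP proteins are named as transmembrane epithelial antigens of the prostate. STEAP2, STEAP3 and STEAP4 pass electrons from NADPH through a heme to ferric and cupric ions, and the reduced metal can then be carried into the cytosol by transporters. STEAP1 lacks the NADPH-binding domain of its relatives. STEAP1 and STEAP2 are known for high levels in prostate cancer, STEAP3 for the reduction of iron taken up with transferrin in red cell precursors, and STEAP4 for induction by androgen and by inflammatory cytokines.

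Library totals ranged from 3394672 to 7271771 counts on genes. ABHD5, the induced gene, was higher with Dox in each library, at 126, 131 and 91.7 CPM in replicates 1, 2 and 3 against 63.5, 58.0 and 62.8 without Dox. CPM divide the counts by TMM-adjusted library sizes, so that libraries of unequal depth can be compared. Reads on no gene were 32.5% to 34.6% of reads without Dox and 35.6% to 39.5% with Dox, and the part of this difference in the results was not tested. Luminal prostate markers were present, and 4 of 8 were lower with Dox (KRT18 and EPCAM among them), where 13.7% of all genes tested were called lower. The rest did not pass, KRT8 and HOXB13 among them, with log2 fold changes of -0.30 and -0.07. The fall was therefore not shared by the whole list. The summed level of the 8 was 1712 to 1811 CPM without Dox and 1127 to 1249 with Dox. Basal markers summed to at most 0.784 CPM, with KRT5 and KRT14 at 0 counts. Stromal markers summed to 6.20 to 11.5 CPM without Dox and 9.57 to 14.97 with Dox, with PDGFRB at 0 counts, and immune markers to at most 2.79 CPM, with CD3E at 0 counts. Of the stromal markers, 2 were tested and COL1A1 passed as higher with Dox, where 11.9% of all genes tested were called higher. COL1A1 had 14, 5 and 12 counts without Dox and cleared the filter on low counts through its libraries with Dox. In RNA from whole cultures, fewer cells of a kind and less RNA per cell cannot be told apart.

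Most of the family lies on chromosome 7 of hg38. STEAP4 occupies 88270892 to 88306894 on the minus strand. STEAP1 (90154456 to 90164829) and STEAP2 (90167590 to 90238137) follow 1.85 Mb further along on the plus strand, head to tail and 2761 bp apart. This gap is between the outermost annotated ends. The RefSeq promoter windows of STEAP2 begin further along, at 90211490 and 90213570. STEAP1B lies on the other arm, from 22419444 to 22727613 on the minus strand, and STEAP3 lies on chromosome 2 from 119223831 to 119265652. STEAP1 and STEAP1B are copies of each other. In hg38 the sequence from position -26599 to position 8160, counted from the start site of STEAP1, aligned to the STEAP1B locus in 3 blocks, 34617 aligned bases in all, at a mean identity of 97.2%. The copied part holds the first 4 of the 5 exons of STEAP1. The last exon, which begins 10008 bases after the start site, lies beyond it.

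The copy includes a promoter of each gene. The RefSeq windows of both genes (GRCh38.p14, 250 bases before to 50 after the start site, 5′ to 3′ on the strand of each gene) were the same at 290 of 300 positions. They are shown because the genes they precede were read at very different levels, and capitals mark the 10 positions that differ. The window of STEAP1B lies inside the span given above, because GENCODE lists 10 STEAP1B transcripts, of which 4 start in this window and the farthest starts at 22727613.
STEAP1 (chr7:90154219-90154518, plus strand): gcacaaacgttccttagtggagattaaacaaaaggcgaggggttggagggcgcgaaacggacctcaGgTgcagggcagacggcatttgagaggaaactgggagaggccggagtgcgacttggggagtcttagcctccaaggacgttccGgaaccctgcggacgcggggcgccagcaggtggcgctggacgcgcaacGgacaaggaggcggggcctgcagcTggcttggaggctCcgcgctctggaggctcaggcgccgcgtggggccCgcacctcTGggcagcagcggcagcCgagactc
STEAP1B (chr7:22500139-22500438, minus strand): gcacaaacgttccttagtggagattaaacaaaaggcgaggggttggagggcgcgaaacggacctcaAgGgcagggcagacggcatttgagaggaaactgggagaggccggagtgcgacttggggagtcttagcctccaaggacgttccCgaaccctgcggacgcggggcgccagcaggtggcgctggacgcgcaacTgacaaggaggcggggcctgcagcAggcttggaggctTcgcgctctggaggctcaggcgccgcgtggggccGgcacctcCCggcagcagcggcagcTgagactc
The mean level of STEAP1 was 96.0 times that of STEAP1B without Dox and 103 times with Dox. STEAP1B had so few counts that the ratio ranged from 69.3 to 155 over the libraries without Dox and from 56.1 to 475 over those with Dox, and the mean ratio with Dox was 208 without replicate 2. These 3′ libraries sample the end of each transcript, so counts were not divided by length, and levels of different genes depend on how well their ends are annotated.

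**Figure D1:**
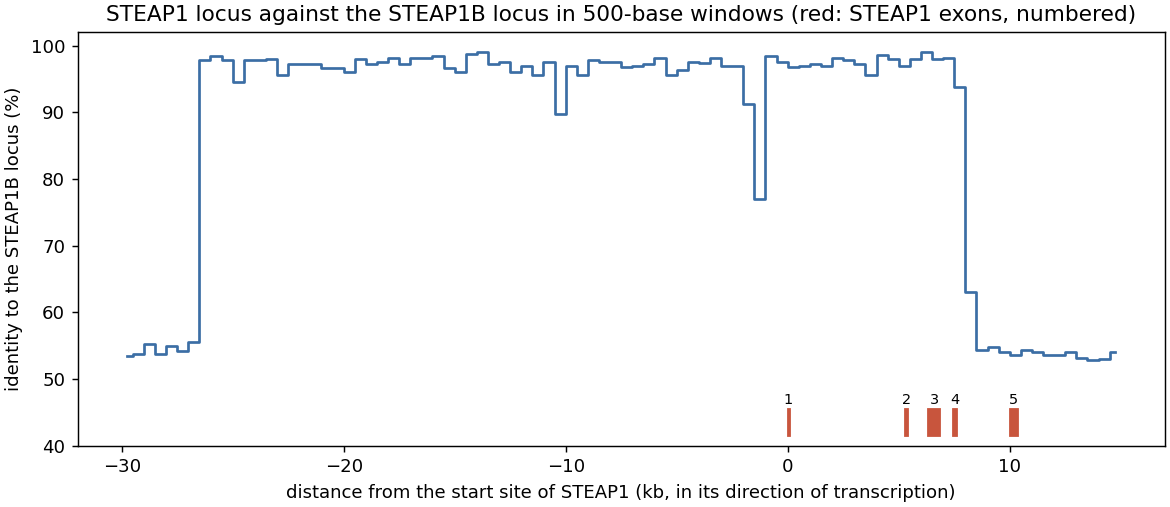
Identity of the STEAP1 locus to the STEAP1B locus in windows of 500 bases, against distance from the STEAP1 start site, with STEAP1 exons as numbered red boxes. Identity is about 97% over exons 1 to 4 and has dropped before exon 5, the last exon.

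Exact matches between the ends of the copies were few. Of the 100-base words in the last 500 bases of STEAP1 transcripts, 84 of 899 (9.34%) also occurred in a STEAP1B transcript, and 134 of 2672 STEAP1B words (5.01%) occurred in STEAP1. For STEAP2, STEAP3 and STEAP4, 0 words occurred in another gene. Words were not weighted by the reads on them. A word with any differing base was counted as not shared. These shares therefore do not show how alike the ends are, or how far reads tell the copies apart. With STEAP1 at 96.0 times the mean level of STEAP1B without Dox, the part of the STEAP1B counts that came from STEAP1 was not tested. STEAP1 lies within an intron of the antisense gene STEAP2-AS1, which had 4 counts over the 6 libraries and shares no exonic base with STEAP1 or STEAP2. STEAP3 and STEAP1B share 11.0% and 14.1% of their exonic bases with an antisense gene. The use of strand in counting is not stated, so reads on those bases cannot be assigned.

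STEAP4, the androgen- and cytokine-induced member, was read at 44.7, 39.1 and 42.8 CPM in replicates 1, 2 and 3 without Dox (171, 126 and 245 counts). With Dox it was at 3.48, 3.34 and 1.58 CPM (16, 12 and 12 counts). Each library with Dox was below each library without Dox. The means were 42.2 ± 2.84 and 2.80 ± 1.06 CPM (SD, n = 3 each), and the fitted log2 fold change was -4.01 (standard error, SE, 0.25), or 16.1-fold lower. Only 5 of the 12233 genes tested had a lower fitted value. STEAP4 passed the filter on low counts through its libraries without Dox. It was not lost with Dox, since its counts there exceeded the limit of detection of 3 counts in each library. At 12 to 16 counts it was still near that limit, so the size of the fall is imprecise. The exact Poisson interval, which covers counting error only, was 1.99 to 5.65 CPM in replicate 1 with Dox and 0.814 to 2.75 CPM in replicate 3, and these intervals overlapped. Replicate 3 with Dox, the deepest library, also had the lowest ABHD5 of its group, and without it the log2 fold change of STEAP4 was -3.62.

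STEAP2, a ferric and cupric reductase, had the highest level in the family and fell with Dox. Its level was 406, 399 and 398 CPM without Dox and 282, 267 and 242 CPM with Dox. The libraries without Dox lay close together and all above those with Dox. The means were 401 ± 4.38 and 264 ± 20.2 CPM (SD, n = 3 each). The log2 fold change was -0.61 (SE 0.12, adjusted p = 0.0012 from edgeR), or 1.52-fold lower.

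STEAP1, which lacks the NADPH-binding domain, fell by nearly the same factor. It was at 145, 144 and 152 CPM without Dox and at 103, 109 and 78.2 CPM with Dox. Again the groups did not overlap, and replicate 3 with Dox was lowest. The share of all genes whose groups do not overlap was not counted. The means were 147 ± 4.59 and 96.9 ± 16.5 CPM (SD, n = 3 each). The log2 fold change was -0.61 (SE 0.14, adjusted p = 0.0034, same test), or 1.52-fold lower. Of all genes tested, 25.5% passed the threshold and 13.7% passed it as lower with Dox, so falls of this kind were common in these cells. Under library totals alone, which moved the median over all tested genes from 0.02 to 0.14 (log2), STEAP1 and STEAP2 were at -0.49 and -0.48 and still passed.

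STEAP3, the reductase of the transferrin cycle, was near the limit of detection. Its counts were 9, 6 and 14 without Dox and 12, 5 and 15 with Dox, and the groups overlapped. The means were 2.22 ± 0.313 and 1.99 ± 0.609 CPM (SD, n = 3 each). STEAP1B, the copy of STEAP1, had 8, 3 and 9 counts without Dox and 1, 7 and 5 with Dox, also with overlap. Its means were 1.53 ± 0.581 and 0.941 ± 0.900 CPM (SD, n = 3 each). Neither gene passed the filter of the test. Fitted without a filter, STEAP3 had a log2 fold change of -0.17 (SE 0.51, adjusted p = 0.867 from edgeR) and STEAP1B had -0.85 (SE 0.71, adjusted p = 0.483, same test). Neither passed the threshold, and with standard errors of this size a small difference was not detectable.

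**Figure D2:**
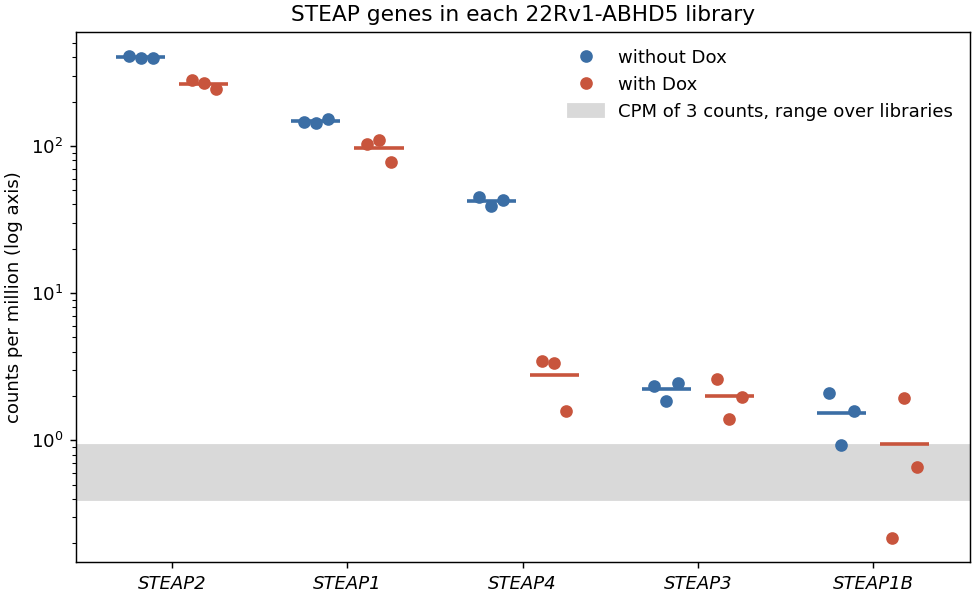
CPM of each STEAP gene on a log axis, with 1 point per library, group means as bars (n = 3 each) and the CPM of 3 counts as a grey band. STEAP2, STEAP1 and STEAP4 separate without overlap between the conditions. STEAP3 and STEAP1B lie at 0.93 to 2.44 CPM without Dox and at 0.22 to 2.61 CPM with Dox. STEAP4 led to the choice of the family by its fall, and the share of all genes that separate was not counted.

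**Figure D3:**
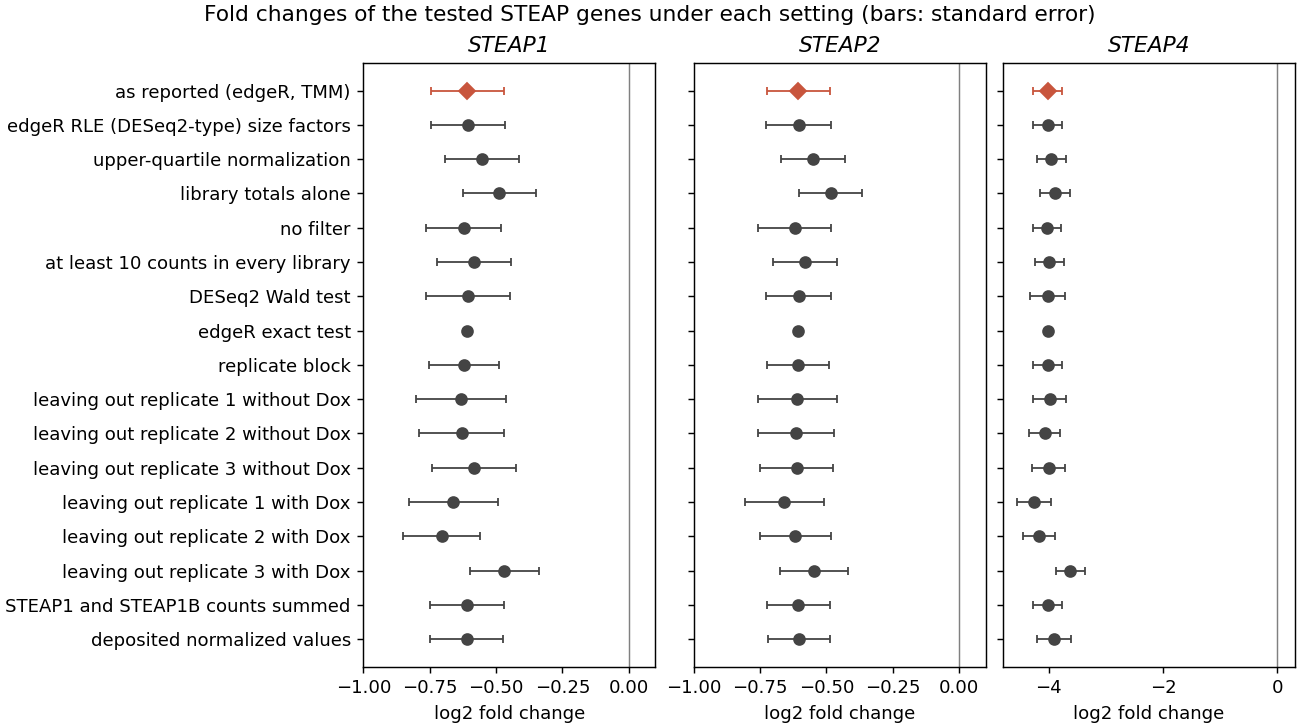
Fitted log2 fold changes (Dox over no Dox) of the tested STEAP genes under each setting, with standard errors where the method gives them. STEAP1 lies between -0.71 and -0.47, STEAP2 between -0.66 and -0.48 and STEAP4 between -4.25 and -3.62.

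Summed over the family, the level was 599.7, 584 and 597 CPM without Dox and 391, 383 and 324 CPM with Dox. The mean fell by 227 CPM. Most of this was STEAP2, which accounted for 60.3%, followed by STEAP1 with 22.0% and STEAP4 with 17.3%. The makeup of the family changed mainly in STEAP4. Its share of family counts was 7.10% ± 0.384 without Dox and 0.749% ± 0.228 with Dox (SD, n = 3 each). In single libraries this share was, for example, 7.45% in replicate 1 without Dox (exact binomial interval 6.41% to 8.60%) and 0.889% in replicate 1 with Dox (0.509% to 1.44%). STEAP2 held 67.5% ± 0.777 and 72.1% ± 2.45, and STEAP1 held 24.7% ± 0.688 and 26.3% ± 2.22, without and with Dox (SD, n = 3 each). The number of STEAP2 counts per STEAP1 count was 2.81, 2.77 and 2.62 without Dox and 2.73, 2.44 and 3.10 with Dox. The tandem pair therefore kept a ratio whose ranges overlapped between the conditions. STEAP1 counts per STEAP4 count were 3.24, 3.68 and 3.56 without Dox and 29.7, 32.8 and 49.6 with Dox.

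The profile of each gene over the 6 libraries was compared with that of every gene with a mean of at least 50 counts, by the root mean square distance between log2 CPM values centred on their mean. For STEAP1 the nearest of 9419 genes were ASPM, which acts at the mitotic spindle pole, GEMIN4, of the SMN complex, and NPM1, the nucleolar protein nucleophosmin, at distances of 0.040, 0.050 and 0.050 (log2). STEAP2 was the 53rd nearest to STEAP1, at 0.10, against a median distance of 0.39. For STEAP2 the nearest were SLC7A2, a transporter of cationic amino acids, MRPL11, a mitochondrial ribosomal protein, and the keratin KRT18, at 0.032, 0.033 and 0.038. For STEAP4 distances were larger, with a median of 1.92 over all genes. The nearest were HGD, an enzyme of tyrosine breakdown, and GCNT1, a glycan-branching enzyme, at 0.35 and 0.36. Their log2 fold changes were -3.34 and -3.39. These distances are descriptions over libraries of 2 conditions, so genes with a like fold change are near each other. For STEAP3, at about 10 counts per library, the nearest genes are not described.

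Most tested genes around STEAP4, STEAP1 and STEAP2 did not pass the threshold. The region from 1 Mb before STEAP4 to 1 Mb after STEAP2 (87270892 to 91238137 on chromosome 7) holds 17 other genes of the table, of which 13 were tested. Of these, 2 were lower and 2 higher with Dox, or 30.8% against 25.5% of all genes tested. SRI, which encodes the calcium-binding protein sorcin and is the nearest tested neighbour of STEAP4, was at 71.0 ± 9.97 CPM without and 72.0 ± 17.3 with Dox (SD, n = 3 each), and the log2 fold change came to 0.03 (SE 0.17). CROT, the peroxisomal carnitine octanoyltransferase, rose, with 1.12 (SE 0.13, adjusted p = 6.51e-06 from edgeR), and a long noncoding RNA gene beside it rose by 0.42 (log2). DBF4, the activator of the replication kinase CDC7, fell, with -0.85 (SE 0.13, adjusted p = 1.46e-04, same test). CDK14, a cyclin-dependent kinase downstream of STEAP2, passed the threshold narrowly with -0.35 (adjusted p = 0.0477, same test). CFAP69, GTPBP10 and CLDN12, which start between STEAP2 and CDK14, had -0.15, -0.21 and -0.43 and did not pass. Only 2 of these genes passed without replicate 1 without Dox or without replicate 1 with Dox.

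**Figure D4:**
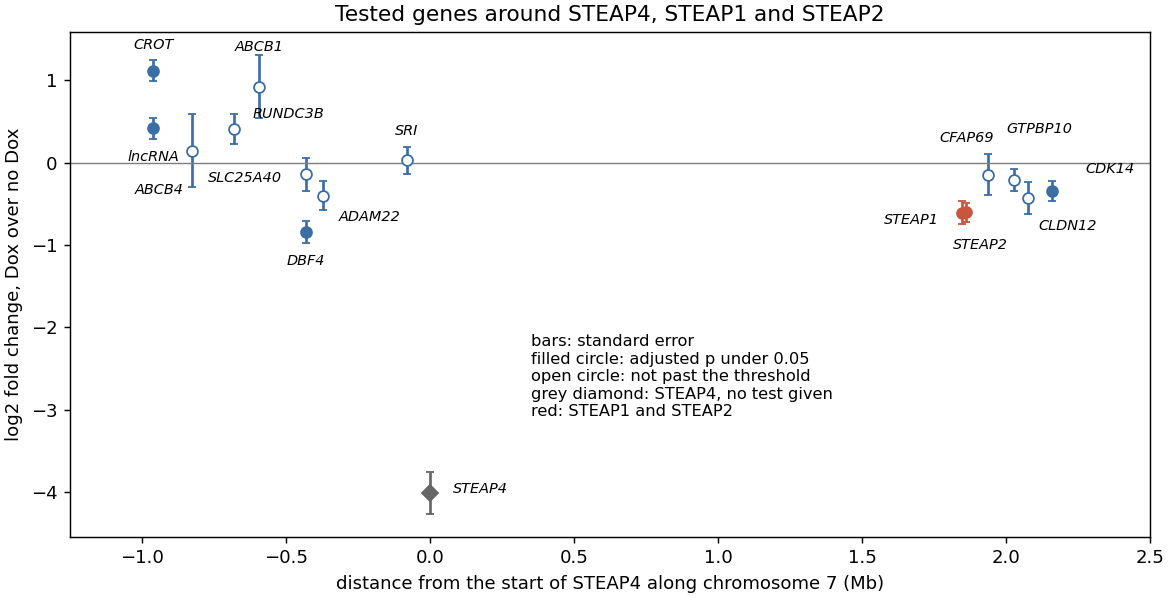
Log2 fold change (Dox over no Dox, with standard error) of each tested gene from 1 Mb before STEAP4 to 1 Mb after STEAP2, against distance from the start of STEAP4. STEAP4 stands at -4.01 while SRI beside it is at 0.03, and STEAP1 and STEAP2 overlie each other at -0.61.

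The promoter of STEAP4 is shown because STEAP4 had the largest fold change in the family. Capitals mark the matches to the motifs searched on both strands.
STEAP4 (chr7:88306845-88307144, minus strand, 5′ to 3′): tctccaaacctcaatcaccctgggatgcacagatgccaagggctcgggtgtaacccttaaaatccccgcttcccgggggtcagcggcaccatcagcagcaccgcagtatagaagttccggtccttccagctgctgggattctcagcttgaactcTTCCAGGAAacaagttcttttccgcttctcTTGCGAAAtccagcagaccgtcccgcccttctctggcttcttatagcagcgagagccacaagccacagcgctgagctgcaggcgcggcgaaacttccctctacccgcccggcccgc
The first match is to the STAT motif TTCNNNGAA, 96 to 88 bases before the start site, and the second to the C/EBP motif TTGCNNAA, 66 to 59 bases before it. They do not overlap. Of the 35097 RefSeq windows of this length, 7.66% held the first and 10.5% the second. The metal response core (TGCACNC or TGCGCNC, in 29.5% of windows), the NF-kB motif (0.789%) and the TATA box TATAAA (11.5%) had no match in this window. The windows of STEAP1, STEAP1B and STEAP3 held none of these motifs. The second of the STEAP2 windows (90213570 to 90213869), which is not shown, held the TATA box at positions -44 to -39 from its start site. The first of the STEAP2 windows, which lies at a RefSeq start inside the span given above and also covers the start of STEAP2-AS1, held the metal response core in 2 places, marked in capitals.
STEAP2 (chr7:90211490-90211789, plus strand, 5′ to 3′): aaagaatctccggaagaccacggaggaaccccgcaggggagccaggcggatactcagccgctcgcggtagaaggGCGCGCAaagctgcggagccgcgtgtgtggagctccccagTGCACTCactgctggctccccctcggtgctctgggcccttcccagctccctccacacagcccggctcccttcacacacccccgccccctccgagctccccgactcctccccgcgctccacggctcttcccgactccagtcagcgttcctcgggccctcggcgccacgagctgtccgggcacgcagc
A match is a description of the letters and not of a binding site.

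Genes related to the STEAP proteins by function, reported regulators of STEAP genes, and genes that respond to such regulators were read as lists. The lists were chosen by function, with earlier results of these data known. Among other transmembrane metal reductases, 5 of 7 were tested, 1 was higher and 0 lower with Dox (20% called against 25.5% of all genes tested), and the median log2 fold change was -0.14 against 0.02 for all genes. CYB561D1, a cytochrome b561 relative, rose from 7.15 ± 1.37 to 13.9 ± 0.464 CPM (SD, n = 3 each), and the log2 fold change came to 0.93 (SE 0.24, adjusted p = 0.00746 from edgeR). CYB561 itself had -0.14 and the lysosomal reductase CYB561A3 had -0.30, and neither passed. CYBRD1, the ferric reductase of the duodenum, had 0 counts in each library, which allows up to 0.394 to 0.930 CPM. Of 8 NADPH oxidase genes, most of which encode a related reductase domain, NOX1 alone was tested and did not pass (-0.37, adjusted p = 0.390, same test).

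Of 26 genes of iron uptake, storage and export, 21 were tested, 4 were lower and 3 higher with Dox, with a median of -0.05. This was 33.3% called against 25.5% of all genes tested, 19.0% against 13.7% in the lower direction and 14.3% against 11.9% in the higher. TFRC, the transferrin receptor, fell from 268, 232 and 289 CPM to 166, 160.0 and 158 CPM, with no overlap and a log2 fold change of -0.71 (SE 0.12, adjusted p = 4.31e-04, same test). SLC11A2, the carrier of the ferrous iron that reductases supply, fell by 0.56, the heme oxygenase HMOX1 by 0.90 and the heme exporter FLVCR1 by 0.50 on the log2 scale. FTL, the ferritin light chain, rose by 0.66, NCOA4, the receptor for ferritin breakdown, by 0.45 and BDH2 by 0.62. Without replicate 1 without Dox, 4 of these genes passed. Of 14 genes of copper uptake and delivery, 13 were tested and 1 was lower with Dox, with a median of -0.31 and 7.69% called against 25.5% of all genes. This was COX17, a copper chaperone of cytochrome oxidase, with -0.63 (adjusted p = 0.0149, same test). SLC31A1, the main copper importer, had -0.34 (adjusted p = 0.0923, same test). The count for copper was 0 without replicate 3 without Dox and 4 without replicate 2 without Dox, so it rests on single libraries.

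Of 17 other androgen-responsive genes, 16 were tested, and 12 were lower and 0 higher with Dox, 75.0% against 13.7% of all genes called lower. The 12 include genes of few counts that cleared the filter on low counts only through their libraries without Dox. An example had 19, 9 and 18 counts without Dox and 8, 7 and 10 with Dox. The median of the tested genes of the list was -1.15. FKBP5, a cochaperone, had a log2 fold change of -1.48, HOMER2, a scaffold protein, -1.87 and the elongation factor ELL2 -1.16. KLK3, which encodes prostate-specific antigen, had -0.30 and did not pass.

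Of the 14 reported regulators of STEAP genes, all were tested, 3 were lower and 4 higher with Dox, with a median of -0.09. This was 50% called against 25.5% of all genes tested, 21.4% against 13.7% lower and 28.6% against 11.9% higher. STAT3, which transmits cytokine signals, rose from 26.4, 27.6 and 20.8 CPM to 47.4, 56.2 and 49.7 CPM, a log2 fold change of 1.05 (SE 0.16, adjusted p = 1.27e-04, same test). HIF1A fell, with -1.30, and EPAS1, which encodes the related factor HIF-2alpha, rose from 1.11 ± 0.637 to 16.5 ± 4.32 CPM (SD, n = 3 each). EPAS1, among the 4 called higher, had 7, 2 and 5 counts without Dox and cleared the filter on low counts only through its libraries with Dox. CEBPD fell, with -0.58, CEBPA had -0.14 and did not pass, and the oxysterol receptor gene NR1H2 rose by 0.53. Of 16 genes of the NF-kB and cytokine response, 8 were tested and 1 was lower, NFKBIA, the inhibitor of NF-kB, with -0.67 (adjusted p = 0.00175, same test), with a list median of -0.08 and 12.5% called lower against 13.7% of all genes. Several of its best-known members, IL6, CXCL1, CXCL2 and SOCS3, had 0 counts in each library.

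STEAP3 is also known as a p53 target. Of 18 other p53 targets, 17 were tested, 7 were higher and 1 lower with Dox, 41.2% against 11.9% of all genes called higher, with a median of 0.38. The log2 fold change was 3.46 for PLK2, a polo-like kinase, 0.99 for ZMAT3 and 0.68 for the cell cycle inhibitor CDKN1A, while GDF15, a stress cytokine, had -0.79. PLK2, among the 7 called higher, had 9, 6 and 14 counts without Dox and cleared the filter on low counts only through its libraries with Dox. Without replicate 1 with Dox, 5 genes of the list passed the threshold. Of 6 genes listed as vesicle or binding partners of STEAP3, 5 were tested and 1 was called (20% against 25.5% of all genes). This was TPT1, the translationally controlled protein, which rose by 0.77 (adjusted p = 2.08e-04 from edgeR).

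**Figure D5:**
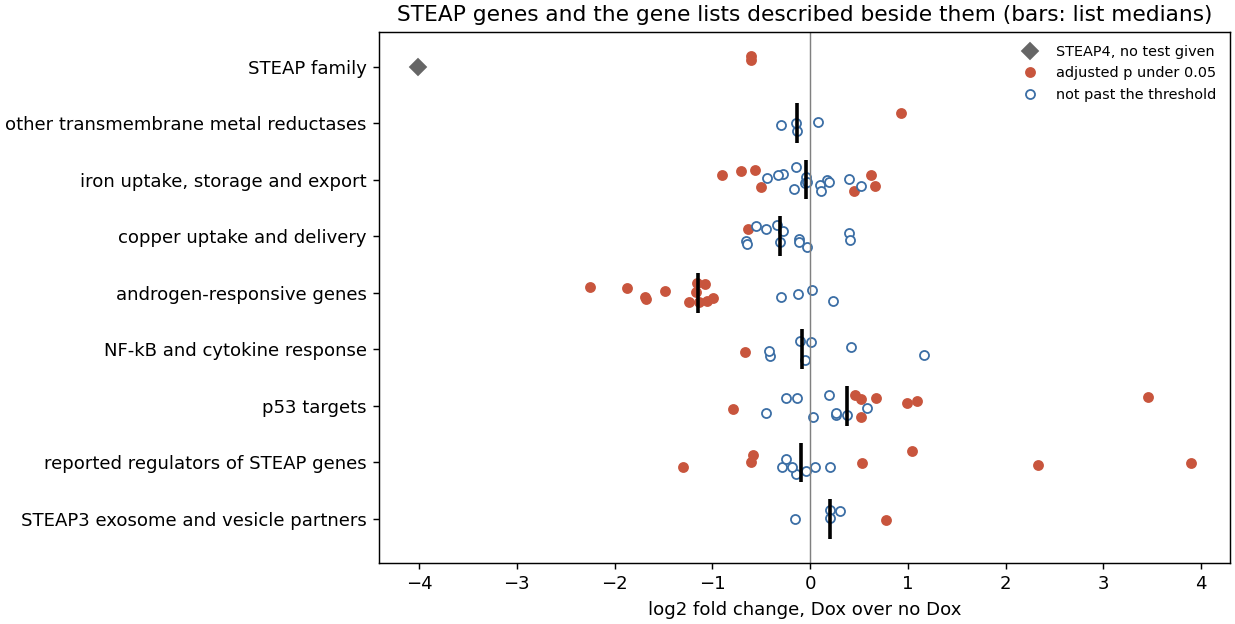
Log2 fold changes (Dox over no Dox) of the tested STEAP genes and of the tested members of each list, with list medians as bars and filled points past an adjusted p of 0.05. The androgen-responsive genes centre at -1.15, while the metal reductase, iron and copper lists centre at -0.14, -0.05 and -0.31.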

How the data were processed

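RNA from the 6 libraries was sequenced as 3′ mRNA reads. Raw counts for each gene symbol were deposited, made by the authors from single-end reads of 100 bp that STAR aligned to hg38. The labels' processing notes also name CASAVA 1.8.2, FastQC, HTSeq and edgeR, with neither the annotation nor the strand setting given. A second deposited table holds normalized values per library, a signal that is not whole and whose scaling is not stated, used here only as an alternative. The methods name the REV kit and the labels the FWD kit of the same maker.

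Counts were tested with edgeR 4.0.16 by its quasi-likelihood test after TMM scaling and filterByExpr, with p-values adjusted by Benjamini-Hochberg over 12233 genes and a threshold of 0.05, in R 4.3.3, with DESeq2 1.42.0 and limma 3.58.1 for alternatives. Rows naming no gene were left out of totals. The test was checked on simulated counts. Members and lists were chosen with earlier results of these data known. Named genes were the members, up to 4 list members with the smallest adjusted p, members whose function is explained, the 3 nearest profiles and genes of the chromosome 7 region. A few genes are not reported here. Positions are from GENCODE 44 and promoters from RefSeq, which had windows for all 5 genes. Intervals are at 95% and, with the limit of 3 counts, cover counting error only.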

Additional observations from a re-analysis of the deposited data

How the results depend on the processing

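STEAP1 and STEAP2 were lower with Dox and past the threshold in all 16 alternatives, with log2 fold changes of -0.71 to -0.47 and -0.66 to -0.48. STEAP4, for which no test is given, lay between -4.25 and -3.62. These were other scalings, filters and tests, STEAP1 and STEAP1B summed, each library left out in turn, and the deposited normalized values, log2(value + 1) in limma, which were added after the data were seen. STEAP1B, which was not tested, had a log2 ratio of means of -0.70, and -1.81 to -0.23 with 1 library left out, lowest without replicate 2 with Dox. The genes called numbered 3125, of which 46.4% were higher, and 65.7% were higher under library totals alone.

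The copper list had 1 gene called, 2 under library totals alone, 2 with DESeq2 and 4 with the replicate block. With 1 library left out it had 0 to 4 (4 without replicate 2 and 0 without replicate 3 without Dox, 2 without replicate 1 and 3 without replicate 2 with Dox). Under library totals alone the NF-kB list had 2 in place of 1 and the list of STEAP3 partners had 2 in place of 1. The iron list had 7, and 4 to 8 with 1 library left out (4 without replicate 1 without Dox), the p53 list 8, and 5 to 9 (5 without replicate 1 with Dox), and the genes near STEAP4 4, and 2 to 5 (2 without replicate 1 of either condition). The cause was not tested.

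Shared replicate numbers were not treated as pairs, since they are not stated to pair cultures. Deviations of same-numbered libraries correlated across genes with r of -0.01, 0.23 and 0.09 for replicates 1, 2 and 3. The highest r with another number was 0.09, -0.09 and 0.10, so these values do not decide the pairing. With the replicate block, STEAP1 had -0.62, STEAP2 -0.61 and STEAP4 -4.01, and 3537 genes were called. The depth limits STEAP3 and STEAP1B, at 15 counts or fewer per library.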
